A study of Mus musculus with 6 samples.

Results

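Osteopontin, encoded by Spp1, and 5 genes for the receptors that bind it (Cd44, Itgav, Itgb1, Itgb3 and Itgb5) were followed in lineage-traced cells of the mouse cerebral cortex, before and after injury. These 6 of the 23494 genes in the deposited tables were picked by name, and measured values entered the choice: Spp1 differed between pericyte clusters and was higher after injury in some of them. The Spp1 differences are therefore given as a description. Mice of the genotype NG2-Cre-ERT2/Ai14-flx (the NG2 line) or Tbx18-CreERT2/Ai14-flx (the Tbx18 line) carried a tamoxifen-inducible Cre and a Cre-dependent tdTomato (tdT) reporter. They were 3 to 4 months old. Each line gave 3 groups, namely naïve mice, mice with physical injury (an intracerebral saline injection) and mice with ischemic injury (an injection of ET-1, a vasoconstrictor, with L-NAME, an inhibitor of nitric oxide synthase). Injured mice received tamoxifen 7 days before the injection, and their cortex was taken 3 days after it. Naïve mice received tamoxifen as well. Live tdT+/DAPI- cells were sorted, so which cells were seen depended on the Cre driver and on the sort. How microglia and other myeloid cells came to be among them was not tested. The NG2 driver also labels oligodendrocyte precursors (OPCs), and both drivers label smooth muscle cells of vessel walls. Cortices of several animals of both sexes were pooled, and each group is 1 droplet library. No test between groups was therefore possible, and no p-value is given.

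Osteopontin is a secreted, phosphorylated glycoprotein that acts as a matrix protein and as a cytokine. It carries an arginine-glycine-aspartate (RGD) motif, which integrins of the alpha-v family recognise. Itgav encodes the alpha-v chain, and Itgb1, Itgb3 and Itgb5 encode beta chains that pair with it. Itgb1 also pairs with many other alpha chains and serves as the common beta chain of laminin, collagen and fibronectin receptors. Cd44 encodes a membrane glycoprotein whose main ligand is hyaluronan and which also binds osteopontin. In injured brain, osteopontin is known from microglia, infiltrating macrophages and fibroblasts of the scar.

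The codons of the RGD motif are shown because Spp1 shares this receptor site with the matrix genes Vtn (vitronectin) and Fn1 (fibronectin), whose levels in the same cells are given below. They were read from GRCm38 (mm10) with GENCODE M21 gene models. Each sequence is 45 bases of coding sequence, 5′ to 3′, and the capitals mark the codons for arginine, glycine and aspartate. That of Spp1 lies in exon 7 of 8 on the plus strand (chr5:104439463-104439507), that of Vtn spans exons 2 and 3 on the plus strand (chr11:78499610-78499732), and that of Fn1 lies in exon 30 of 46 on the minus strand (chr1:71606728-71606772). Fn1 has 2 such codon runs, and the other, in exon 40 (chr1:71597425-71597469), is listed last.
Spp1: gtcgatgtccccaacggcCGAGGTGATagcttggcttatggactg
Vtn: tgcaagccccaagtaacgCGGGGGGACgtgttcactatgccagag
Fn1, exon 30: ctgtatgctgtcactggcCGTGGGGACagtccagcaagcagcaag
Fn1, exon 40: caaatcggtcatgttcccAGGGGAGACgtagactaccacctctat

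The members lie apart in the genome. Spp1 is on chromosome 5 (104435118 to 104441050, plus strand), Cd44 on chromosome 2 (102811141 to 102901665, minus strand) and Itgav on chromosome 2 (83724397 to 83806916, plus strand). Itgb1 is on chromosome 8 (128685654 to 128733200, plus strand), Itgb3 on chromosome 11 (104608000 to 104670476, plus strand) and Itgb5 on chromosome 16 (33829665 to 33949338, plus strand).

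The libraries held 686 to 4306 cells, with medians of 2806 to 9232 UMIs (counted transcript molecules) per cell, lowest in the naïve library of each line. Any 2 libraries shared 0 to 5 cell barcodes, at most 0.437% of the smaller one. Levels are UMIs of a gene per 1000000 UMIs of the same cells (CPM), followed in parentheses by 95% exact Poisson limits where a range is given. Shares of cells carry exact Clopper-Pearson limits, and ratios of levels carry exact binomial limits. All of these cover counting error only. Because a deeper cell shows a UMI more readily, shares are also given after thinning each cell to 1000 UMIs. Clusters of each line keep the numbers and names of the study. The deposited clustering of both naïve libraries runs from 0 to 13 and does not match the naïve clusters named in the study, so its clusters are given by number only. In the NG2 line, clusters 0, 1 and 2 carried the summed level of 8 pericyte markers at 33078 to 39811 CPM in all 3 libraries, and the mesenchymal-like pericytes of cluster 8 at 23194 to 25835 CPM. In the Tbx18 line the naïve cells of cluster 3 and the injured cells of cluster 4 went against their names. The naïve cells of cluster 3, named microglia, had pericyte markers at 21173 CPM and 4 of 7 microglial markers at 0. The naïve cells of cluster 4, named vascular-genic pericytes, had pericyte markers at 15468 CPM against 131 and 35.3 CPM in its injured cells. Naïve and injured cells of these clusters are therefore not compared with each other. The injured cells of cluster 3 carried markers of border macrophages and monocytes (8572 and 7531 CPM) beside microglial ones (6269 and 4957 CPM).

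Summed over whole libraries, the ligand and its receptors moved differently. Spp1 was at 201, 34.9 and 247 CPM in the naïve, physical injury and ischemic injury libraries of the NG2 line, and at 120, 213 and 271 CPM in those of the Tbx18 line. Cd44 was at 2.91, 5.51 and 37.6 CPM in the NG2 line. No Cd44 UMI was seen in the 686 naïve cells of the Tbx18 line, against 114 and 203 CPM after physical and ischemic injury. The order ran the other way for Itgb1, at 1090, 658 and 565 CPM in the NG2 line and 1029, 752 and 528 CPM in the Tbx18 line. It did so also for Itgb5, with 213, 103 and 77.4 CPM, and 166, 77.0 and 41.9 CPM. Itgav was at 112, 122 and 153 CPM in the NG2 line and at 99.2, 58.5 and 64.9 CPM in the Tbx18 line. Itgb3 did not exceed 3.50 CPM in any library. Library totals change with the mix of cell types in the sort, so the genes were next examined within clusters.

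To see where naïve pericytes carry osteopontin, the clustering of both naïve libraries together was used. In its cluster 7, Spp1 reached 3130 CPM (3014 to 3249) in 244 NG2-tdT+ cells and 1872 CPM (1627 to 2143) in 27 Tbx18-tdT+ cells. After thinning, 84.6% and 69.2% of these cells kept an Spp1 UMI. The clusters were formed on expression, Spp1 included, so this level is a description. The other 7 clusters of pericytes (0, 1, 2, 3, 5, 8 and 9) stood at 86.8 CPM over both libraries, 93.7 CPM in the NG2 library and 29.1 CPM in the Tbx18 library. Within the NG2 library they ranged from 4.31 CPM in cluster 5 through 75.0 CPM in cluster 0 to 290 CPM in cluster 3. Cluster 6 was left out of the 7 because its 29 NG2-tdT+ cells carried microglial markers. Its 246 Tbx18-tdT+ cells had Spp1 at 292 CPM. Their pericyte markers summed to 15212 CPM, beside smooth muscle markers at 6598 CPM and endothelial markers at 3238 CPM. Cluster 7 carried the pericyte markers at 34230 CPM in the NG2 library and at 22612 CPM in the Tbx18 library. Fibroblast markers were at 261 and 1756 CPM there, so that the few Tbx18-tdT+ cells of this cluster differed in more than Spp1.

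The receptors did not follow the ligand into this cluster. Itgav stood at 125 CPM in cluster 7 against 128 CPM in the other pericytes of both libraries, a log2 ratio of -0.04 (-0.31 to 0.22). Itgb1 stood at 1052 against 1158 CPM (log2 ratio -0.14, -0.23 to -0.05), and Itgb5 at 224 against 257 CPM (log2 ratio -0.20, -0.40 to -0.00). Cd44 and Itgb3 had 0 UMIs in its 271 cells, and 26 and 11 UMIs in the 3623 others. Both were thus too rare in naïve pericytes to compare. The pooled values are mostly those of the NG2 library. In the 27 Tbx18-tdT+ cells of cluster 7, Itgav was at 53.5 CPM on 6 UMIs against 139 CPM in the other pericytes (log2 ratio -1.38, -2.84 to -0.23). Itgb1 there was at 936 against 1209 CPM (log2 ratio -0.37, -0.67 to -0.09).

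When the naïve NG2-tdT+ cells were clustered with the injured cells of their line, these 244 cells did not stay together. Cluster 0 took 77 of them, cluster 1 took 102, cluster 2 took 63 and cluster 8 took 2. They held 58.2%, 82.5% and 73.0% of the naïve Spp1 UMIs in clusters 0, 1 and 2. The highest naïve level of any NG2 pericyte cluster is therefore 3130 CPM by the clustering of the naïve libraries and 408 CPM by that of the line. Of the 27 Tbx18-tdT+ cells, 16 went to cluster 3 of their line, 8 to cluster 2 and 3 to cluster 5. They held 90.6%, 61.0% and 72.1% of the naïve Spp1 UMIs there.

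To ask whether osteopontin transcripts differed after injury in pericytes, levels were compared within the clusters of the NG2 line. In activated pericytes (cluster 0) Spp1 was at 330 CPM (315 to 345) in the naïve library, 70.3 CPM (59.0 to 83.1) after physical injury and 210 CPM (192 to 230) after ischemic injury. Canonical pericytes of cluster 1 had 408 CPM (387 to 430), 211 CPM (186 to 239) and 261 CPM (229 to 295). Those of cluster 2 had 189 CPM (176 to 203), 93.1 CPM (80.8 to 107) and 145 CPM (125 to 167). The order was the same in all 3 clusters, with naïve cells highest and physical injury lowest, and the counting limits of the 3 libraries were apart in clusters 0 and 2. In cluster 1 the limits of the 2 injuries overlapped. The small canonical cluster 10 had 5, 0 and 5 Spp1 UMIs in 44, 23 and 43 cells.

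Pooled over clusters 0, 1 and 2, Spp1 was at 307 CPM in 3243 naïve cells, 111 CPM in 1106 cells after physical injury and 202 CPM in 1085 cells after ischemic injury. The log2 ratio over naïve was -1.46 (-1.59 to -1.34) for physical injury and -0.61 (-0.71 to -0.50) for ischemic injury. Both comparisons share the naïve library. Ischemic over physical injury gave a log2 ratio of 0.86 (0.71 to 1.01). A UMI was found in 19.4%, 13.1% and 16.5% of the cells. After thinning, the limits of this share were 10.9% to 13.2%, 4.98% to 7.97% and 6.74% to 10.2%. The naïve limits lay apart from those of both injuries. Summed over cells, these pericytes had less Spp1 in either injured library than in the naïve one, by 2.75 and 1.52 fold. The limits of these ratios do not cover the spread between cells. The 5% of cells with most Spp1 held 71.3%, 77.6% and 77.4% of it in the 3 libraries.

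Mesenchymal-like pericytes (cluster 8) went the other way after ischemia. Spp1 was at 86.6 CPM (66.7 to 111) in 177 naïve cells, 59.2 CPM (43.2 to 79.3) in 81 cells after physical injury and 910 CPM (873 to 949) in 240 cells after ischemic injury. The log2 ratio of ischemic injury over naïve was 3.39 (3.04 to 3.78), or 10.5 fold. That of physical injury over naïve was -0.55 (-1.13 to 0.03), and 37 of the 45 UMIs behind it came from 1 cell, without which the level was 10.7 CPM. In the ischemic library a UMI was seen in 20.4% of cluster 8 cells and, after thinning, in 13.9%, against 4.60% of naïve and 3.75% of physically injured cells. Other values of cluster 8 differed between the libraries too. Its median depth was 4026, 7733 and 8444 UMIs, and the smooth muscle markers summed to 1092, 3935 and 1966 CPM, with Cnn1 at 0 in the naïve and ischemic cells. The endothelial markers summed to 292, 731 and 692 CPM, with Ly6c1 at 0 in naïve cells, and the fibroblast markers to 362, 592 and 586 CPM, with Col1a1 and Lum at 0 in naïve cells. Their part in the differences of Spp1 and of the receptors in this cluster was not tested. Cluster 8 held 1.60%, 7.01% and 70.5% of the Spp1 UMIs of the 5 pericyte clusters in the 3 libraries, with 5.11%, 6.69% and 17.5% of their cells. Summed over the 5 clusters, Spp1 was at 293, 104 and 442 CPM. The ischemic value of this sum lies above the naïve one through cluster 8, since clusters 0, 1 and 2 lie below. With equal weight for each cell its log2 ratio over naïve, 0.59, turned to -0.042.

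**Figure D1:**
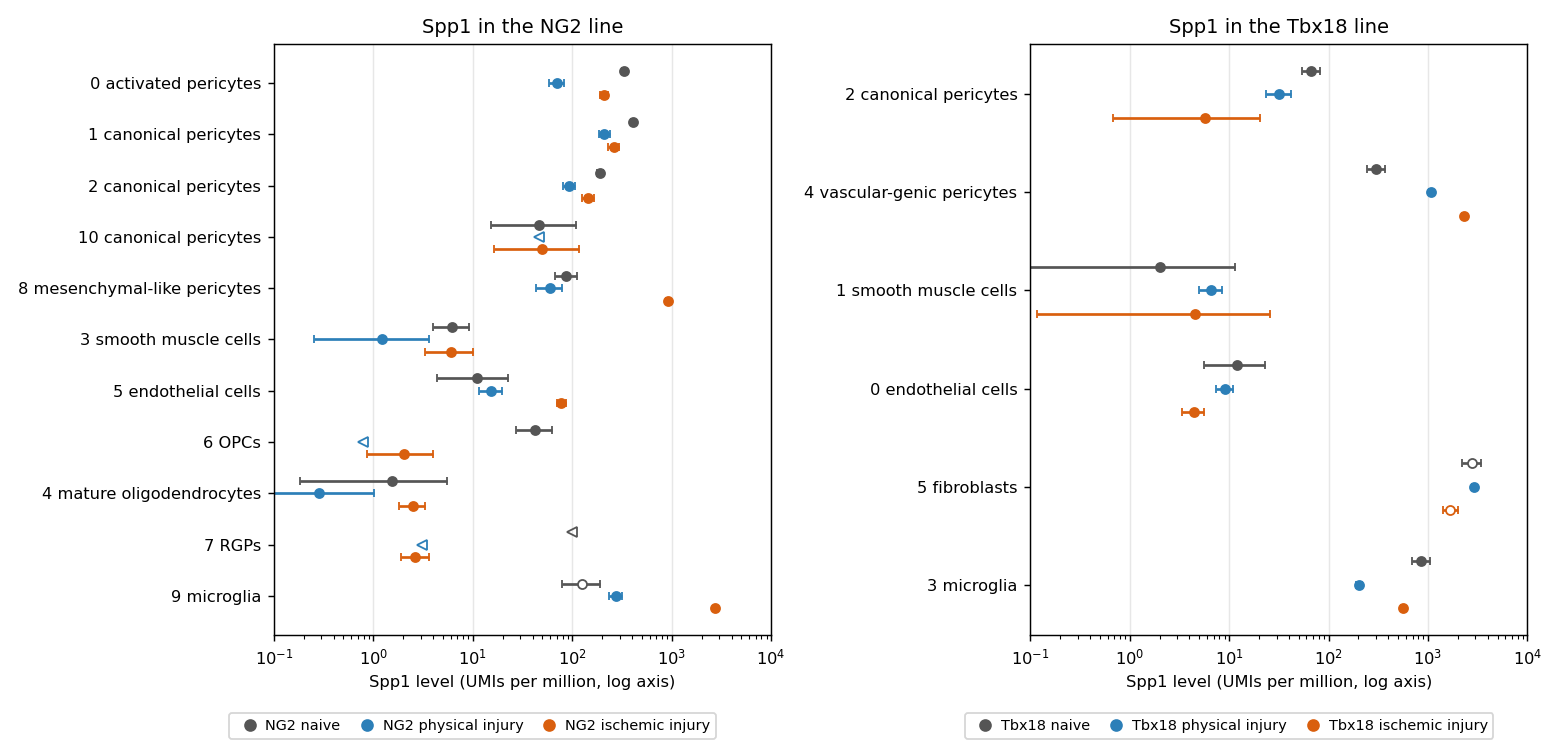
Spp1 levels in UMIs per 1000000 (log axis) by cluster in the NG2 line (left) and the Tbx18 line (right), 1 point per library with 95% Poisson bars. Triangles stand at the level of 3 UMIs where 0 were counted, open circles are clusters under 20 cells, and Tbx18 cluster 6 is not drawn. NG2 clusters 0, 1 and 2 are highest in naïve cells, whereas NG2 clusters 8 and 9 are highest after ischemic injury, at 910 and 2705.

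Other cells of the NG2 line were the cell types against which these shares were set, and no background level was estimated. Smooth muscle cells had 6.17, 1.24 and 6.06 CPM of Spp1, and mature oligodendrocytes 1.53, 0.284 and 2.48 CPM. After thinning, a UMI was seen in at most 1.56% of the smooth muscle cells, oligodendrocytes, OPCs and endothelial cells of any NG2 library, although the median depth of smooth muscle cells was 7909 to 10167 UMIs. The thinned shares of clusters 0, 1 and 2, 4.42% to 14.4%, all lie above that. OPCs had 42.2 CPM in the naïve library, with 23 of 24 UMIs in 2 cells, then 0 UMIs in 301 cells (which allows a share of up to 0.997%) and 2.03 CPM. Endothelial cells had 11.0, 15.2 and 77.8 CPM, and 300 of the 369 ischemic UMIs lay in 1 cell. Without that cell the ischemic level was 14.6 CPM. The cell carried 49 UMIs of the endothelial gene Cldn5 and 19 of the pericyte gene Vtn. The radial glia-like progenitors (RGPs, cluster 7) had 0 UMIs in 76 cells after physical injury and 2.64 CPM in 438 cells after ischemic injury.

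Microglia (cluster 9) held most of the Spp1 of the ischemic NG2 library. Its level was 273 CPM in 36 cells after physical injury and 2705 CPM (2651 to 2759) in 164 cells after ischemic injury, a log2 ratio of 3.31 (3.08 to 3.54). In the physical injury library 136 of the 157 UMIs came from 1 cell, and the level was 38.8 CPM without it. In the ischemic library 51.8% of the cells had a UMI, and 35.7% after thinning. Its highest cells carried 2080, 1055 and 832 of the 9729 UMIs, a spread between cells that the Poisson limits do not cover. The naïve library had 18 of these cells, too few for a ratio, at 125 CPM with 23 UMIs, all in 1 cell. The cluster made up 4.57% of the ischemic library and held 72.7% of its Spp1 UMIs, whereas clusters 0, 1 and 2 held 44.4%, 33.5% and 18.4% of those in the naïve library.

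In the Tbx18 line, canonical pericytes (cluster 2) had 67.2 CPM of Spp1 (54.7 to 81.8) in 226 naïve cells, 31.7 CPM (23.3 to 42.1) in 433 cells after physical injury and 5.68 CPM, or 2 UMIs, in 86 cells after ischemic injury. The log2 ratios over naïve were -1.09 (-1.62 to -0.57) and -3.57 (-6.63 to -1.68), and the Poisson limits of the 3 libraries were apart. Ischemic over physical injury gave -2.48 (-5.57 to -0.55). Of the 100 naïve UMIs, 39% lay in 2 cells, and 8 cells from cluster 7 of the naïve libraries held 61.0%. The limits do not cover this spread between cells. After thinning, 4.04%, 3.13% and 0% of the cells had a UMI, the last of only 75 cells. Several other values of cluster 2 differed between the libraries too. Its median depth was 6547.5, 2540 and 3791.5 UMIs, and the pericyte markers summed to 30600, 19424 and 18878 CPM. The smooth muscle markers summed to 705, 3992 and 1711 CPM, and the endothelial marker Cldn5 stood at 4.0, 183 and 446 CPM. Their part in the differences of Spp1 and of the receptors in cluster 2 was not tested.

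Cluster 4, whose injured cells carried few pericyte markers, was a main holder of Spp1 in the injured Tbx18 libraries. It had 1065 CPM (1027 to 1104) in 349 cells after physical injury and 2281 CPM (2200 to 2365) in 143 cells after ischemic injury. The log2 ratio of the 2 injuries was 1.10 (1.02 to 1.17), or 2.14 fold. After thinning, 27.9% and 47.1% of the cells had a UMI. Smooth muscle markers had the highest marker sum in the same cells, at 4447 and 5501 CPM, with Myh11 among them at 49.8 and 1.54 CPM. Fibroblast markers summed to 1258 and 3073 CPM, and border macrophage and monocyte markers to 675 and 1058 CPM. These sums were all higher after ischemia, and their part was not tested. The 157 naïve cells of this cluster had 302 CPM (242 to 372), with no cell above 4 UMIs.

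Fibroblasts (cluster 5) had 2873 CPM of Spp1 (2762 to 2989) in 116 cells after physical injury, and a UMI in 81.9% of them. After thinning, 73 of 113 cells had a UMI. The naïve and ischemic libraries had 5 and 10 such cells, too few for a ratio. Of the 5 naïve cells, 2 from cluster 6 of the naïve libraries held 24 Spp1 UMIs and 3 from its cluster 7 held 62. All genes together had 31198 UMIs in these 5 cells, so Spp1 was present in this cluster before injury too. Their pericyte markers summed to 9840 CPM and their fibroblast markers to 7404 CPM. The myeloid cells of cluster 3 had 201 CPM (188 to 216) after physical injury and 562 CPM (540 to 586) after ischemic injury, a log2 ratio of 1.48 (1.37 to 1.60). In the ischemic library 24 of 265 cells held 94.1% of the 2324 UMIs, and the highest cells carried 345, 314 and 299. The limits do not cover this spread between cells. After thinning, a UMI was seen in 29 of 318 cells after physical injury and 29 of 263 after ischemic injury. Naïve cells of cluster 3, which carried pericyte markers, had 852 CPM on 96 UMIs in 76 cells. Of these UMIs 70.8% lay in 3 cells, and the median depth was 1117.5 UMIs. Endothelial cells of this line had 12.1, 9.02 and 4.40 CPM, and smooth muscle cells 2.04, 6.61 and 4.58 CPM. After thinning, 0.474% to 0.807% of the endothelial cells had a UMI. They are a cell type to set the other shares against, and no background level was estimated. All 9 naïve endothelial UMIs lay in cells from cluster 6 of the naïve libraries. Clusters 4 and 5 held 45.3% and 38.8% of the Spp1 UMIs after physical injury, and clusters 4 and 3 held 54.0% and 42.3% after ischemic injury.

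Few cells carried most of the Spp1. The 5% of cells with most Spp1 held 77.5%, 93.4% and 97.7% of it in the naïve, physical and ischemic NG2 libraries, and 74.2%, 91.3% and 95.5% in the Tbx18 libraries. A limit of 10 Spp1 UMIs, set after the values were seen, separated such cells. In NG2 clusters 0, 1 and 2 together, 113 of 3243 naïve cells (3.48%, 2.88% to 4.17%) passed it, against 13 of 1106 (1.18%, 0.627% to 2.00%) after physical injury and 27 of 1085 (2.49%, 1.65% to 3.60%) after ischemic injury. Only the limits of the naïve and physical injury shares were apart. These cells held 61.0%, 38.7% and 57.9% of the Spp1 UMIs of the clusters.

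In the ischemic library 25 of 240 cells of cluster 8 passed the limit and held 97.0% of its Spp1 UMIs, and the highest cell had 615. These 25 cells had Vtn at 5404 CPM against 13871 CPM in the rest of the cluster, and Dcn, a fibroblast proteoglycan, at 879 against 262 CPM. The pericyte markers summed to 10148 against 25410 CPM, with 0 UMIs of the microglial gene C1qa. The fibroblast markers summed to 1046 against 508 CPM, through Dcn alone. The rest of that list was lower in sum, with Col1a1 at 0 against 1.42 CPM. Endothelial markers summed to 1113 against 620 CPM, and Cldn5 among them was at 97.7 against 10.9 CPM. Cd44 was at 137 against 57.8 CPM and Itgav at 173 against 128 CPM, while Itgb1 (2193 and 2174 CPM) and Itgb5 (206 and 228 CPM) were close. Their median depth was 11258 against 8127 UMIs. The 10.5-fold ratio of cluster 8 thus rests on 25 cells. Pericyte markers were lower in them, and Dcn and endothelial markers higher, than in the rest of their cluster.

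Among microglia of the ischemic NG2 library, 53 of 164 cells passed and held 99.1% of the Spp1. Gpnmb and Lgals3, genes of lipid-laden phagocytes, were at 176 and 561 CPM in them against 21.7 and 228 CPM in the others, and Cd44 at 118 against 44.3 CPM. In cluster 3 of the Tbx18 line 17 cells passed after physical injury and 24 after ischemic injury. There Cd74, of antigen presentation, was lower in the passing cells (4033 against 14608 CPM, and 4636 against 12725 CPM), and Lyz2 was higher (13455 against 5982 CPM, and 9726 against 5218 CPM). In cluster 4 of the Tbx18 line 48 of 143 cells passed after ischemic injury, with the collagen gene Col1a1 at 2737 against 632 CPM. The limit was on raw UMIs, and the passing cells of these groups were deeper than the rest. Median depth was 28501 against 16354 UMIs in the NG2 microglia and 10733 against 6634 in Tbx18 cluster 4. In Tbx18 cluster 3 it was 19011 against 11793 UMIs after physical injury and 19523.5 against 15081 after ischemic injury. In naïve NG2 cluster 0 the passing cells and the rest were close in Vtn (19587 and 18663 CPM) and Itgb1 (1020 and 1074 CPM). Their pericyte markers summed to 32939 against 35685 CPM, with Pdgfrb at 1178 against 1495 CPM. The fibroblast markers summed to 329 against 224 CPM, with Dcn at 113 against 74.0 CPM. Median depth there was 3934 against 4137 UMIs. In naïve NG2 clusters 1 and 2 the fibroblast sums were close, at 241 against 232 CPM and 220 against 221 CPM. Dcn was lower in the passing cells of cluster 1 (49.8 against 66.4 CPM) and higher in those of cluster 2 (66.1 against 50.3 CPM).

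**Figure D2:**
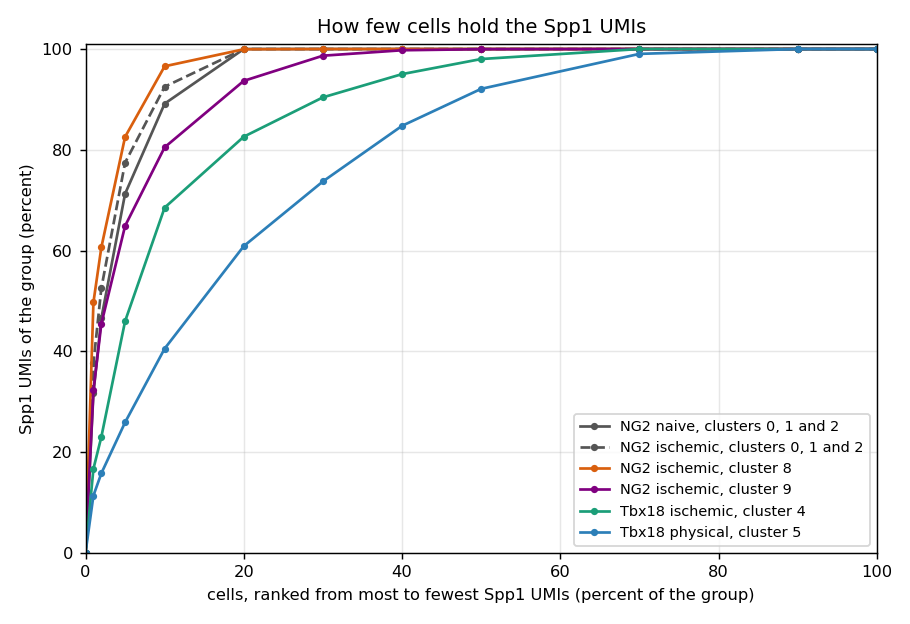
Share of a group's Spp1 UMIs (percent) held by its cells, ranked from most to fewest Spp1 UMIs (percent of cells), for 6 groups. The highest 10% of cells hold 96.6% in NG2 cluster 8 after ischemic injury, 89.2% in naïve NG2 clusters 0, 1 and 2, and 40.5% in Tbx18 fibroblasts (cluster 5) after physical injury, where the gene is spread most evenly of the 6.

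Cd44 was nearly absent from pericytes of NG2 clusters 0, 1 and 2, at 0.30 to 2.14 CPM in every library. Mesenchymal-like pericytes (cluster 8) had 18.9 CPM (10.4 to 31.8) in the naïve library, 47.4 CPM (33.2 to 65.6) after physical injury and 69.3 CPM (59.3 to 80.5) after ischemic injury. The log2 ratios over naïve were 1.32 (0.40 to 2.33) and 1.87 (1.09 to 2.77). Cluster 8 thus differed from the other pericytes of its line in this receptor already before injury. RGPs had 44.3 and 82.6 CPM after physical and ischemic injury, and their 259 of 438 ischemic cells with a UMI held 61.3% of all Cd44 UMIs of that library. These cells were counted without thinning, and the median depth of the ischemic RGPs was 37572.5 UMIs. OPCs had 0 UMIs in the naïve and physical injury libraries and 72 UMIs, 18.2 CPM, after ischemic injury, which is at least 23.0-fold higher than after physical injury and at least 3.46-fold higher than in naïve cells, against a floor of 3 counts per library. Oligodendrocytes had 0.763 CPM (1 UMI), 0.994 CPM and 13.2 CPM, and the 228 ischemic UMIs lay in 35 of 592 cells. Endothelial cells gave 1.57, 0 and 1.69 CPM. Smooth muscle cells stood at 5.40, 6.59 and 13.8 CPM, and microglia at 60.0, 41.7 and 74.5 CPM.

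In the Tbx18 line Cd44 belonged to the myeloid cells of cluster 3. They had 785 CPM after physical injury and 958 CPM after ischemic injury, with a UMI in 74.8% and 83.8% of the cells, and held 90.8% and 96.2% of the Cd44 UMIs of their libraries. Those shares of cells were not thinned. After thinning, Cd44 was seen in 37.4% and 46.6% of the cells without an Spp1 UMI, and in 34.5% and 48.3% of those with one. Cluster 4 had 74.7 and 88.3 CPM. Canonical pericytes (cluster 2) went from 0 UMIs to 12.8 and 36.9 CPM, on 19 and 13 UMIs, at least 6.34-fold and 18.3-fold above naïve. In fibroblasts after physical injury 43 of the 44 Cd44 UMIs came from 1 cell, and endothelial cells had 1.22 and 1.28 CPM. Microglia of the NG2 line and myeloid cells of the Tbx18 line therefore differed widely in Cd44, alongside border macrophage and monocyte markers of 366 to 1012 CPM in the former and 7531 to 8572 CPM in the latter.

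Itgav, the alpha chain, was level in the main pericytes. NG2 clusters 0, 1 and 2 together had 132, 124 and 132 CPM, and the log2 ratios over naïve were -0.09 (-0.22 to 0.04) and -0.01. In cluster 8 it was at 74.4, 140 and 134 CPM, with log2 ratios of 0.91 (0.42 to 1.40) and 0.85 (0.44 to 1.29). Tbx18 cluster 2 had 135, 97.7 and 65.3 CPM, with log2 ratios of -0.47 (-0.79 to -0.15) and -1.05 (-1.74 to -0.42). The same gene was thus higher after injury in NG2 cluster 8 and lower in Tbx18 cluster 2. Marker sums and depth of both clusters also differed between the libraries, as given above, and their part was not tested. OPCs had 185, 273 and 279 CPM, RGPs 293 and 260 CPM in the injured libraries, and microglia 196, 297 and 203 CPM. Smooth muscle cells of the NG2 line stayed between 61.0 and 64.5 CPM.

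Itgb1 was found in 93.6% to 97.2% of the cells of NG2 clusters 0, 1 and 2, and in 65.8% to 69.9% after thinning. Its levels there were 1121, 1081 and 1246 CPM, with log2 ratios of -0.05 (-0.10 to -0.01) and 0.15 (0.11 to 0.20). Cluster 8 stood at 1382, 2112 and 2177 CPM, with log2 ratios of 0.61 (0.50 to 0.73) and 0.66 (0.56 to 0.75). Tbx18 cluster 2 had 1191, 1037 and 993 CPM, with log2 ratios of -0.20 (-0.30 to -0.10) and -0.26 (-0.43 to -0.10). Smooth muscle cells of the NG2 line stood at 1482, 1473 and 1462 CPM, and those of the Tbx18 line at 1490, 1305 and 1410 CPM, where the log2 ratio of physical injury, -0.19 (-0.30 to -0.08), turned to 0.15 with TMM scaling. Endothelial cells had 602 to 715 CPM in the NG2 line and 535 to 550 CPM in the Tbx18 line. Oligodendrocytes (196 to 221 CPM), OPCs (242 to 314 CPM) and microglia (278 to 336 CPM) were lower. The lower Itgb1 totals of the injured libraries therefore had no counterpart of that size within these mural clusters.

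Itgb3 was at the edge of detection. NG2 clusters 0, 1 and 2 had 3, 2 and 4 UMIs in the 3 libraries. Cluster 8 had 5.41, 6.58 and 9.32 CPM, with log2 ratios of 0.28 (-1.93 to 2.62) and 0.78 (-0.76 to 2.78), so no change was detectable at this depth. Smooth muscle cells (7.20, 8.65 and 7.35 CPM) and endothelial cells (6.27, 2.98 and 7.80 CPM) of the NG2 line had a similar level, and microglia had 5.46, 10.4 and 10.0 CPM.

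Itgb5 was level in NG2 clusters 0, 1 and 2, at 268, 278 and 256 CPM (log2 ratios 0.05, -0.04 to 0.14, and -0.07, -0.16 to 0.03). Cluster 8 had 154, 273 and 224 CPM, with log2 ratios of 0.82 (0.48 to 1.16) and 0.54 (0.25 to 0.85). Tbx18 cluster 2 had 223, 206 and 190 CPM. Microglia of the NG2 line had 682, 557 and 520 CPM. A UMI was seen in 77.8%, 83.3% and 86.0% of these cells without thinning, at median depths of 10449.5, 16124.5 and 19742 UMIs. The injured myeloid cells of Tbx18 cluster 3 had 119 and 145 CPM. Microglia thus had the highest level of this beta chain in the NG2 line, and the myeloid cells of the other line did not share it. OPCs had 14.1, 2.64 and 3.04 CPM. Endothelial cells of the NG2 line had 26.7, 24.9 and 25.1 CPM, and those of the Tbx18 line 29.7, 3.66 and 2.41 CPM. The pericyte markers summed to 3806, 349 and 102 CPM in these Tbx18 endothelial cells, moving with Itgb5, and their part in it was not tested.

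**Figure D3:**
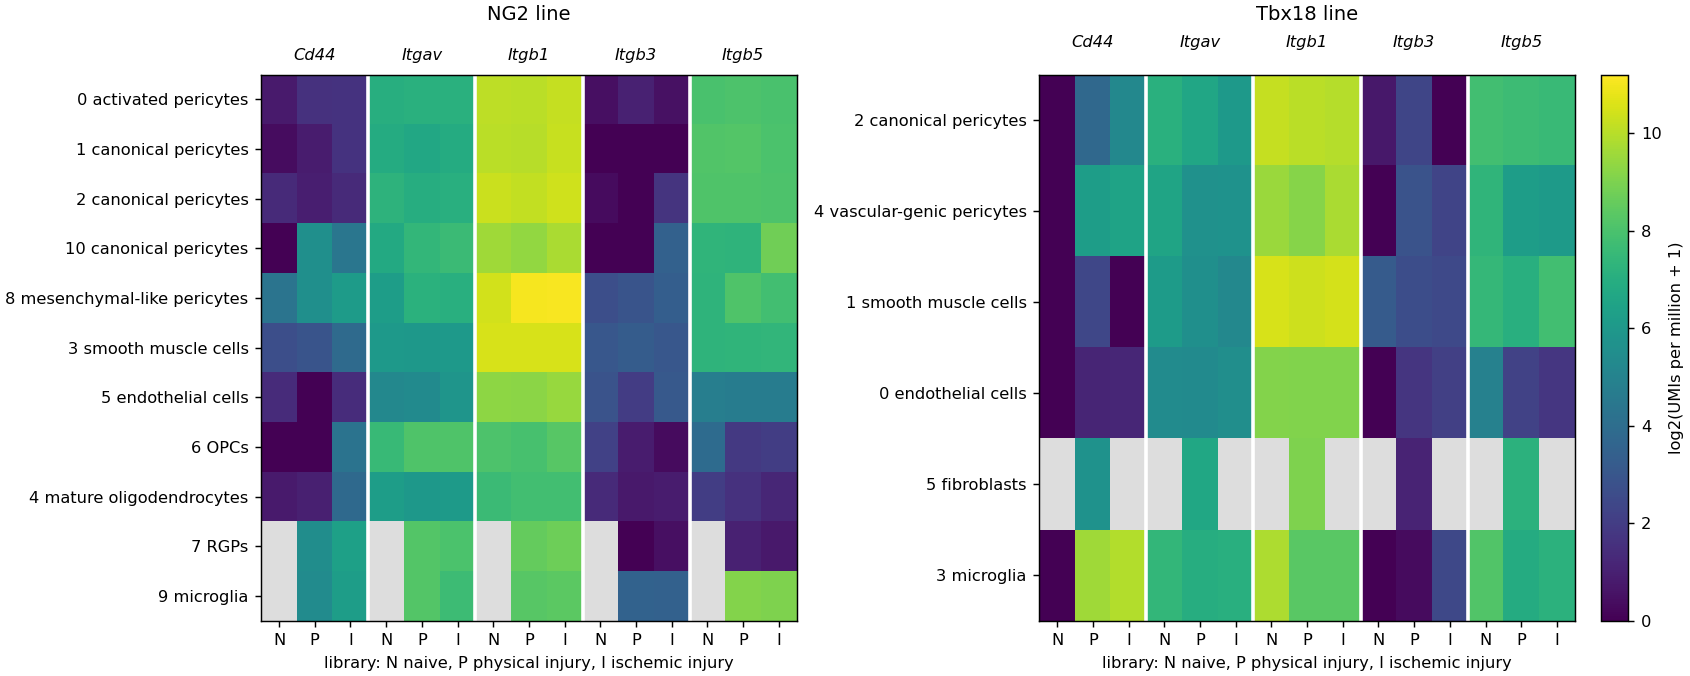
Levels of the 5 receptor genes, as log2(UMIs per 1000000 + 1), by cluster (rows) and library (N naïve, P physical injury, I ischemic injury) in the NG2 line (left) and the Tbx18 line (right). Grey marks clusters under 20 cells. Cd44 is brightest in the injured cells of Tbx18 cluster 3 (785 and 958 UMIs per 1000000), Itgb1 in NG2 cluster 8 after ischemic injury (2177), and Itgb3 is dark throughout.

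The members were read against all genes of the same cells. A gene was counted as past 2 fold, with a pseudocount of 1 CPM, if it reached 50 CPM in the higher group. In the 5 NG2 pericyte clusters pooled, 4 members were tested after physical injury, of which 0 were higher (0.412% of 4128 genes were) and 1, Spp1, was lower (0.46% of the genes were). After ischemic injury 0 of 4 members were higher, against 2.03% of 4139 genes, and 0 lower, against 0.169%. In cluster 8 after physical injury none of 4 members passed in either direction, against 4.98% of 4354 genes higher and 5.42% lower. After ischemic injury 2 of 5 members, Spp1 and Cd44, were higher in cluster 8, against 6.7% of 4344 genes, and 0 were lower, against 8.38%. In Tbx18 cluster 2 after physical injury 0 of 4 members were higher, against 6.42% of 4439 genes, and 1, Spp1, was lower, against 3.67%. After ischemic injury 0 of 4 were higher, against 7.04% of 4559 genes, and 2, Spp1 and Itgav, were lower, against 5.18%. Spp1 was chosen on these contrasts, and nothing is read from its share. Cd44 in cluster 8 was at 18.9 CPM in naïve cells and 69.3 CPM after ischemic injury. It entered the count only through the ischemic cells, so nothing is read from that count either.

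**Figure D4:**
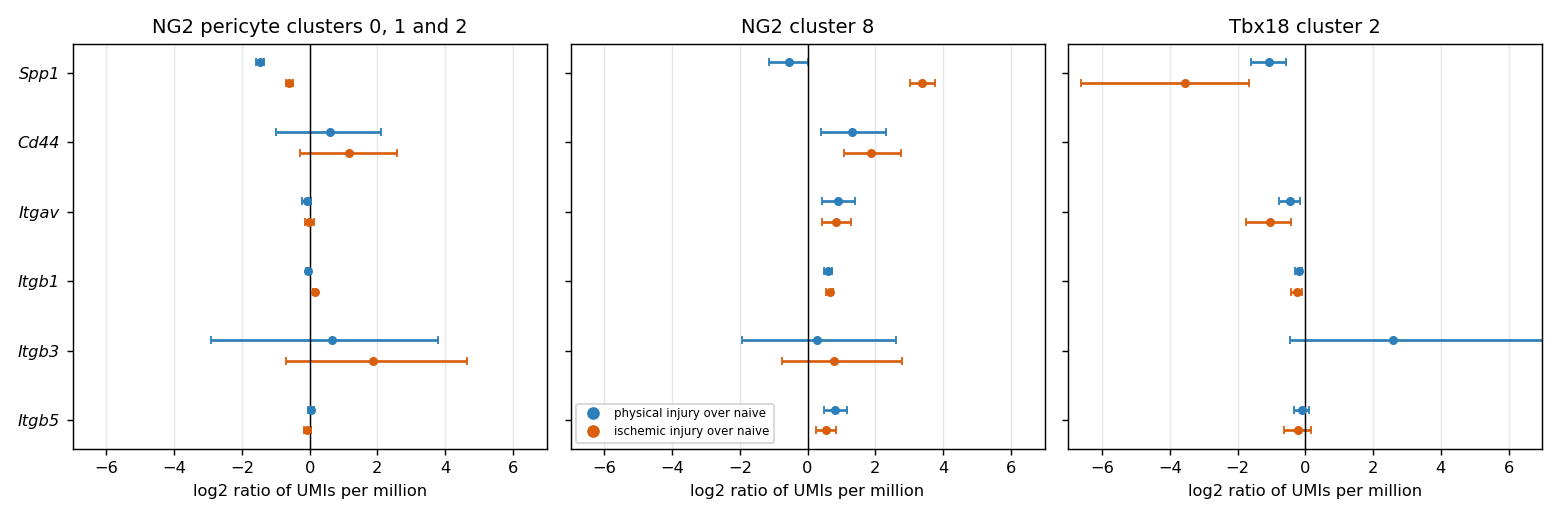
Log2 ratios of UMIs per 1000000 over naïve for the 6 genes in NG2 clusters 0, 1 and 2, NG2 cluster 8 and Tbx18 cluster 2, with 95% counting limits, for physical and ischemic injury. Genes with 0 UMIs in one of the groups have no point, and limits past the axis are not drawn whole. In NG2 cluster 8, Itgav, Itgb1, Itgb5 and Cd44 lie above 0 after both injuries and Spp1 only after ischemic injury, at 3.39.

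Whether cells with osteopontin transcripts also held its receptors was asked in thinned cells. In naïve NG2 clusters 0, 1 and 2, Itgb1 was seen in 62.9% of 385 cells with an Spp1 UMI and in 66.2% of 2823 without. Itgb5 was seen in 20.5% and 24.2%, and Itgav in 13.2% and 11.5%, and the limits of each pair overlapped. In the myeloid cells of Tbx18 cluster 3, Itgb5 was seen in 24.1% (10.3% to 43.5%) of cells with an Spp1 UMI against 6.92% (4.28% to 10.5%) without after physical injury. After ischemic injury it was seen in 34.5% (17.9% to 54.3%) against 11.1% (7.39% to 15.9%), and each library had 29 thinned cells with an Spp1 UMI. The limits just overlapped after physical injury and were apart after ischemic injury. Microglia of the ischemic NG2 library (cluster 9) went the other way. Itgb5 was seen there in 29.1% (17.6% to 42.9%) of 55 cells with an Spp1 UMI. In the 99 cells without, it was seen in 40.4% (30.7% to 50.7%), and the limits overlapped. Pericytes with and without Spp1 were thus not told apart by these receptors at this depth. For Itgb5 the limits of cells with and without Spp1 were apart only in ischemic Tbx18 cluster 3, and many such pairs were compared.

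The wider pathway was described with 37 genes in 6 lists, namely other integrin subunits, other matrix ligands, relatives of osteopontin, enzymes acting on osteopontin, hyaluronan enzymes and cytoskeletal partners of the receptors. In the 5 NG2 pericyte clusters 0 of 9 tested genes passed 2 fold after physical injury (0.412% of all genes were higher and 0.46% lower). After ischemic injury 2 of 11 were higher and 0 lower (2.03% and 0.169% of all genes). Those 2 encode matrix ligands of the same integrins. Fn1 was at 5.50, 20.1 and 62.6 CPM, and Tnc (tenascin C) at 0.0733, 17.6 and 155 CPM. Nearly all of this lay in cluster 8, which held 406 of the 451 ischemic UMIs of Fn1 and 1098 of the 1115 of Tnc. In clusters 0, 1 and 2 together Fn1 was at 5.55, 5.97 and 9.49 CPM and Tnc at 0.0781, 0.560 and 3.45 CPM. In cluster 8, 4 of 12 genes were higher after physical injury (4.98% of all genes were) and 6 of 13 after ischemic injury (6.7% of all genes). None of them was lower after either, against 5.42% and 8.38% of all genes. Fn1 there was at 5.41, 121 and 165 CPM, Thbs1 (thrombospondin) at 5.41, 82.9 and 96.8 CPM and Lamb1, a laminin chain, at 85.2, 271 and 271 CPM. Tnc had 0 UMIs in naïve cells of cluster 8, then 140 and 445 CPM. Itga5, the alpha chain of the fibronectin receptor, was at 5.41, 21.1 and 53.5 CPM, and Msn (moesin), which links Cd44 to actin, at 223, 386 and 524 CPM. In Tbx18 cluster 2, Fn1 alone was higher after either injury, at 25.6, 61.3 and 70.9 CPM, and Itga8 was lower after ischemic injury, at 53.8, 55.9 and 19.9 CPM, of 11 genes tested each time. Of all genes there, 6.42% and 7.04% were higher after physical and ischemic injury, and 3.67% and 5.18% lower. The limit of 50 CPM applied to the higher group. Fn1, Tnc, Thbs1 and Itga5 in the NG2 cells, and Fn1 in Tbx18 cluster 2, were under it in naïve cells. They entered these counts only through injured cells, and Itga8 after ischemia only through naïve cells. Nothing is therefore read from the counts, and the levels are a description. Vtn, whose RGD codons stand beside those of Spp1 above, was at 18640, 17936 and 15896 CPM in the NG2 pericytes and passed in neither direction.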

How the data were processed

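UMI counts of single cells were deposited after the authors had aligned reads to mm10 (GRCm38) with Cell Ranger (7.0.0 per the submitters' processing notes) and filtered the cells. The authors also deposited the percent of mitochondrial transcripts, which served here as a filter in alternatives. Cluster numbers and names of each line are the study's. The clusters of the naïve table do not match those it names and are given by number. All deposited cells were kept, and the sources used here mention no doublet removal.

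Counts were summed per cluster and library and divided by all UMIs of these cells (CPM). With 1 library per group, no test was made. Ratios needed 20 cells. In counts over all genes a pseudocount of 1 CPM, 50 CPM in the higher group and 2 fold were used, a script tested on simulated data. The text names every member, the pathway genes past 2 fold and the genes most like Spp1. The members and lists were chosen with earlier results of these data known. Marker sums add the CPM of a list. Sequences and positions come from GENCODE M21. The authors' annotation is not given in the sources used here. Alternatives were TMM factors, totals without the 50 highest genes, per-cell means, filters on cells, and thinning to 2000 UMIs. Scripts used R 4.3.3 with edgeR 4.0.16 (TMM only), and Python 3.11.15 with matplotlib 3.10.9, pandas 2.3.3, scipy 1.17.1 and numpy 2.4.6.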

Additional observations from a re-analysis of the deposited data

Results flagged for a closer look

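The same contrast ran in opposite directions in the 2 lines for 4 values, each with 1 library per group, so the difference was not tested. In pericytes, ischemic over physical injury gave a log2 ratio of Spp1 of 0.86 in NG2 clusters 0, 1 and 2 and -2.48 in Tbx18 cluster 2, the latter on 2 ischemic UMIs. In the same cells, ischemic injury over naïve gave a log2 ratio of Itgb1 of 0.15 in the NG2 line and -0.26 in the Tbx18 line. In endothelial cells, Spp1 had log2 ratios of 2.83 (NG2) and -1.46 (Tbx18) for ischemic injury over naïve, and of 2.36 and -1.04 for ischemic over physical injury. The NG2 endothelial values rest on 1 cell with 300 Spp1 UMIs, without which the ischemic level was 14.6 CPM against 15.2 CPM after physical injury. In the Tbx18 line all 9 naïve endothelial UMIs lay in 68 cells from cluster 6 of the naïve libraries. The Tbx18-tdT+ cells of that cluster carried pericyte markers at 15212 CPM. Pericyte markers summed to 3806, 349 and 102 CPM in the Tbx18 endothelial cells of the 3 libraries, and their part was not tested.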

How the results depend on the processing

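No paired analysis was possible because the labels carry no replicate numbers, and with 1 library per group none could be left out. For the 8 main Spp1 comparisons, 51 of 64 alternatives moved the value by less than its counting limits, 13 moved it further and 0 turned it, and the cause was not tested. Leaving out the 1% of cells with most Spp1, an alternative chosen after seeing the data, gave log2 ratios over naïve of -1.60 (from -1.46, physical injury) and -0.83 (from -0.61, ischemic injury) in NG2 clusters 0, 1 and 2, and 5.53 (from 5.10) for naïve cluster 7. Means per cell gave 2.95 (from 3.39) for NG2 cluster 8. For Tbx18 cluster 4, ischemic over physical injury (1.10) became 1.22 with TMM factors, 1.18 with reduced totals, 1.21 with the methods' filters, 1.01 without cells with myeloid UMIs and 1.22 without the top 1%. For NG2 microglia (3.31) it became 4.50 with per-cell means, 7.84 with the methods' filters, 7.69 without the deepest 5% of cells and 5.60 without the top 1%. These rest on few cells of the physical injury library. Among other values, 1 Spp1 ratio and 1 receptor ratio turned: ischemic injury over naïve in all 5 NG2 pericyte clusters was -0.042 with per-cell means (from 0.59), and Itgb1 after physical injury in Tbx18 smooth muscle was 0.15 with TMM factors (from -0.19). TMM factors shifted all ratios by 0.341 there, by 0.108 and 0.188 in NG2 cluster 8, and by at most 0.128 in the other clusters compared over naïve.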

Other observations

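The genes whose level followed that of Spp1 most closely across clusters and libraries differed between the 3 tables. The measure was Pearson's r over log2 levels of groups of at least 20 cells, which share libraries and depth, and it is a description. Across 24 groups of the naïve libraries they were Slc6a13 (r = 0.82), Scube1 (0.79), Gm10790 (0.79), Aldh1a1 (0.78) and Sall1 (0.77). Across 31 groups of the NG2 line they were Tmem173 (0.90), Tram1 (0.87), Ifi30 (0.86), M6pr (0.86) and Arhgdib (0.86), of which Tmem173, Ifi30 and Arhgdib are genes of immune cells. Across 16 groups of the Tbx18 line they were Lpar1 (0.89), Gsdme (0.89), Calr (0.89), Enpp1 (0.88) and Creb3l1 (0.88). These lists depended on the setting. With at least 50 cells per group, only Slc6a13 and Scube1 stayed in the naïve list and only Tmem173 in the NG2 list. With Spearman's rank correlation, Slc6a13 and Gm10790 stayed in the naïve list, and Tram1, Ifi30 and Arhgdib in the NG2 list. The Tbx18 list lost Creb3l1 in the former setting and Calr in the latter. No receptor was among the 5 genes in any table. Itgb5 came nearest in the NG2 line, in place 57 of 8847 genes (r = 0.74).

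Spp1 levels of the naïve NG2 and Tbx18 libraries also differed within several clusters of the naïve clustering, with 1 library per line. The limits do not cover the spread between cells. In cluster 7, 62 of the 210 Spp1 UMIs of the 27 Tbx18-tdT+ cells lay in 3 cells, which fell among the fibroblasts of their line. Fibroblast markers there were also higher in the Tbx18-tdT+ cells, as given above. The log2 ratio of Tbx18-tdT+ over NG2-tdT+ cells was -0.74 (-0.95 to -0.54) in cluster 7, -0.80 (-1.62 to -0.07) in cluster 0, -1.60 (-2.84 to -0.59) in cluster 2 and -4.31 (-7.35 to -2.45) in cluster 3, where it rested on 2 against 537 UMIs. In clusters 1 and 8 the limits included 0, as they did in cluster 5, where the ratio was 1.70 (-0.57 to 3.78) on 4 and 6 UMIs. In cluster 6 it was 0.86 (0.31 to 1.45), but its 246 Tbx18-tdT+ cells carried pericyte markers (15212 CPM) and its 29 NG2-tdT+ cells microglial ones (14677 CPM).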
